A study of Mus musculus with 24 samples.

Results

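The added loss of Tet3 was examined by setting triple knockout (TKO) against double knockout (DKO) mouse embryonic stem cells (ESCs) 6 days after leukemia inhibitory factor (LIF) was removed, a stage called D6. The comparison holds 4 of the 24 RNA-seq libraries of the series, chosen by their labels and not by any measured value: clones TKO_8.4 and TKO_8.12, and clones DKO_5.11 and DKO_5.12. The D6 label of the last of these lacks the point and was read as DKO_5.12, the name used on day 0. All clones descend from 1 parental ESC clone, of the strain 129/SVj, that expresses eGFP from the Oct4 (Pou5f1) locus. DKO clones carry CRISPR/Cas9 indels in Tet1 and Tet2 (Tet1-/-, Tet2-/-), and TKO clones carry indels in Tet1, Tet2 and Tet3 (Tet1-/-, Tet2-/-, Tet3-/-), so loss of Tet1 and Tet2 is common to both groups. Each library is 1 clone grown without LIF in bulk culture, hence the 2 libraries of a group differ by clone as well as by culture. The same 4 clones were also sequenced on day 0 (D0), with LIF, and D6 WT clones (n = 3) served as the unedited reference. Clones with indels in Tet1 alone (Tet1-/-, n = 3) or Tet2 alone (Tet2-/-, n = 2) of each day entered the fits and are given where a value bears on the comparison.

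Tet enzymes oxidize 5-methylcytosine in DNA to 5-hydroxymethylcytosine and further forms, which leads to removal of the methyl mark either by base excision repair or by dilution over cell division. In ESCs Tet1 and Tet2 are the abundant members, whereas Tet3 is known best from the oocyte, the zygote and neural tissue. Removing LIF lets ESCs leave the naive pluripotent state and form a mixture of epiblast-like, mesodermal, endodermal and neural cells.

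The site edited in Tet3 is shown first, because it is the only designed difference between the groups. The unedited window below, from the NCBIM37 (mm9) assembly, lies at chr6:83329882-83329910 on the minus strand. It falls in coding exon 5 of transcript Tet3-001, inside a gene that spans 83312367 to 83391672 on chromosome 6, and matches the genome at 1 place. Capitals mark the NGG motif that Cas9 needs beside its target. Beneath it stand the Tet3 alleles that the study recorded for its TKO clones, 1 allele for each, the only one it located.
Tet3, unedited window: ggcaaggaggggaagagttctcgAGGctg
Tet3, TKO clone 1: ggcaaggaggggaagagttcgaggctg
Tet3, TKO clone 2: ggcaaggaggctg
The listed allele of TKO clone 1 lacks 2 bases and that of TKO clone 2 lacks 16. Neither number is a multiple of 3, so both listed alleles shift the reading frame. The other Tet3 allele of each clone is not known. The study states that it may hold an indel too large for PCR to amplify. The record numbers its clones 1 and 2 and does not say which of them is clone TKO_8.4 and which is clone TKO_8.12. In the same record, TKO clone 1 has 1 Tet1 allele that lacks 12 bases and 1 Tet2 allele that lacks 18, both multiples of 3, next to a Tet2 allele that lacks 1 base. The other Tet1 allele of TKO clone 1 holds substituted bases beside a deletion whose length is also a multiple of 3. Alleles that lack a multiple of 3 bases were listed for DKO clones as well, a Tet1 allele that lacks 12 bases in DKO clone 1 and a Tet1 allele that lacks 9 in DKO clone 2. The other Tet1 allele of DKO clone 2 lacks the whole sequenced window. The study reported loss of protein by Western blot, and its blot of these lines names Tet1 and Tet2 but not Tet3. Small indels leave nearly the whole transcript in place, so the RNA level of an edited gene is no measure of its protein.

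Tet3 RNA at D6 was 9.31 CPM (read counts scaled to library size) in clone TKO_8.12 and 8.34 CPM in clone TKO_8.4, against 14.2 CPM in clone DKO_5.11 and 14 CPM in clone DKO_5.12. Both TKO clones lay below both DKO clones, and also below the D6 WT clones, which ran from 14.3 to 22.1 CPM. The log2 fold change of TKO against DKO was -0.68 (SE 0.225), with an unadjusted p of 0.0120 and an adjusted p of 0.594 by the quasi-likelihood test of edgeR (Benjamini-Hochberg adjusted). On D0 the order was the same at lower levels, with 2.69 and 4.2 CPM in the TKO clones and 5.88 and 5.75 CPM in the DKO clones. Tet3 RNA rose from D0 to D6 in each genotype tested. In a fit of all libraries of both days the log2 rise was 1.49 (SE 0.196) in WT, 1.10 (SE 0.240) in DKO and 1.18 (SE 0.248) in TKO. The edgeR adjusted p was 2.73e-06, 0.000836 and 0.000729, respectively.

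Tet2 RNA at D6 was 11.2 and 17.5 CPM in clones TKO_8.12 and TKO_8.4, and 10.6 and 6.10 CPM in clones DKO_5.11 and DKO_5.12. The clones of the groups did not overlap, although TKO_8.12 exceeded DKO_5.11 by less than 1 CPM, and the log2 fold change was 0.78 (SE 0.276, adjusted p = 0.594 by edgeR). Tet1 RNA separated the TKO clones from each other, not the groups, with 61.4 CPM in TKO_8.12, 269 CPM in TKO_8.4, 167 CPM in DKO_5.11 and 86.2 CPM in DKO_5.12. The spread of Tet1 between the TKO clones was already present on D0, at 39.5 CPM in TKO_8.12 and 538 CPM in TKO_8.4. The 2 TKO clones therefore bracketed both DKO clones in Tet1 RNA on each day.

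**Figure D1:**
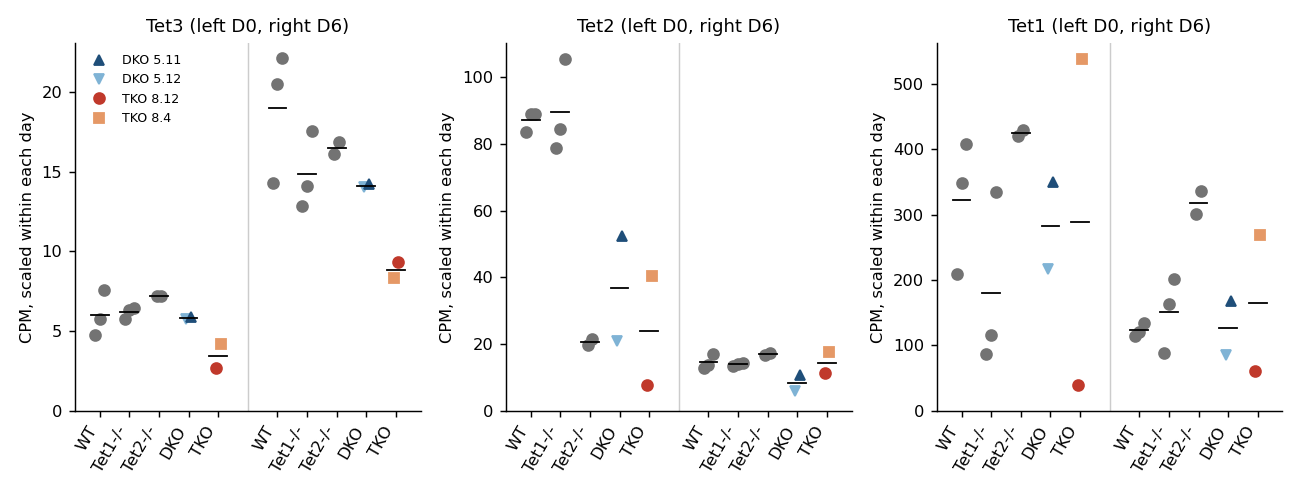
RNA level of Tet3, Tet2 and Tet1 in CPM (vertical axis) for every library, by genotype, with D0 to the left and D6 to the right of the grey line; points are single clones, coloured and shaped by clone for TKO and DKO, and black bars are group means. Tet3 in both TKO clones (8.34 and 9.31 CPM at D6) sits below every other D6 library, while Tet1 in the TKO clones spans 61.4 to 269 CPM.

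No gene was called between TKO and DKO at D6. Calls required more than a 2-fold difference together with an adjusted p under 0.05, and edgeR called 0 of 15435 genes higher (0%) and 0 lower (0%), the smallest adjusted p being 0.594. With an unadjusted p under 0.05 in place of the adjusted one, TKO had 207 higher genes (1.34% of those tested) and 96 lower genes (0.622%). Without clone TKO_8.4 there were 2.47 times as many higher genes and 544 lower ones, while 116 were higher without DKO_5.11, 314 were higher in the fit of 24 libraries and 125 were higher outside chromosomes 6, 8, 11 and 12. DESeq2, run on the same counts, called 3 genes higher and 1 lower. Leaving out clone TKO_8.4 gave 85 genes called higher and 52 lower, while leaving out any other of the D6 libraries in turn gave 0 in both directions. Biological variation between clones, as edgeR's coefficient, was 0.279 in TKO and 0.109 in DKO. The 4 libraries held 19603502 to 34219640 counts, and even the DKO clones differed by more than counting error, with a median chi-square of 3.49 per gene between them. Since 2 against 2 libraries cannot give an exact permutation p below 0.333, no such test was made for single genes.

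Whole chromosomes stood apart in single clones. A chromosome shift is the median, over the genes of a chromosome, of the log2 CPM difference to the WT mean of the same day, less the same median over all autosomes. In clone TKO_8.12 chromosome 6 was shifted by 0.48 and chromosome 12 by 0.46, against -0.13 and 0.03 in clone TKO_8.4. The DKO clones stood at -0.13 and -0.14 on chromosome 6 and at 0.03 and 0.03 on chromosome 12. Chromosome 8 was shifted in both TKO clones, by 0.24 in TKO_8.12 and 0.31 in TKO_8.4, while clone DKO_5.11 stood at 0.15, clone DKO_5.12 at -0.06 and the WT clones between -0.13 and 0.10. The Tet2-/- clones, at 0.38 and 0.47, were shifted further on chromosome 8 than the TKO clones, and 1 of the Tet1-/- clones was at 0.32. Chromosome 11 was at 0.17 in TKO_8.12 and at -0.04 in TKO_8.4, within the range of the other genotypes, whose highest value was 0.19. On D0 clone TKO_8.12 again stood out, at 0.45 on chromosome 6, 0.39 on chromosome 11 and 0.42 on chromosome 12, and clone TKO_8.4 was at 0.39 on chromosome 19, where it was at -0.05 on D6. Gains of whole chromosomes, chromosome 8 above all, are common in cultured mouse ESCs, but DNA copy number was not measured in these files.

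**Figure D2:**
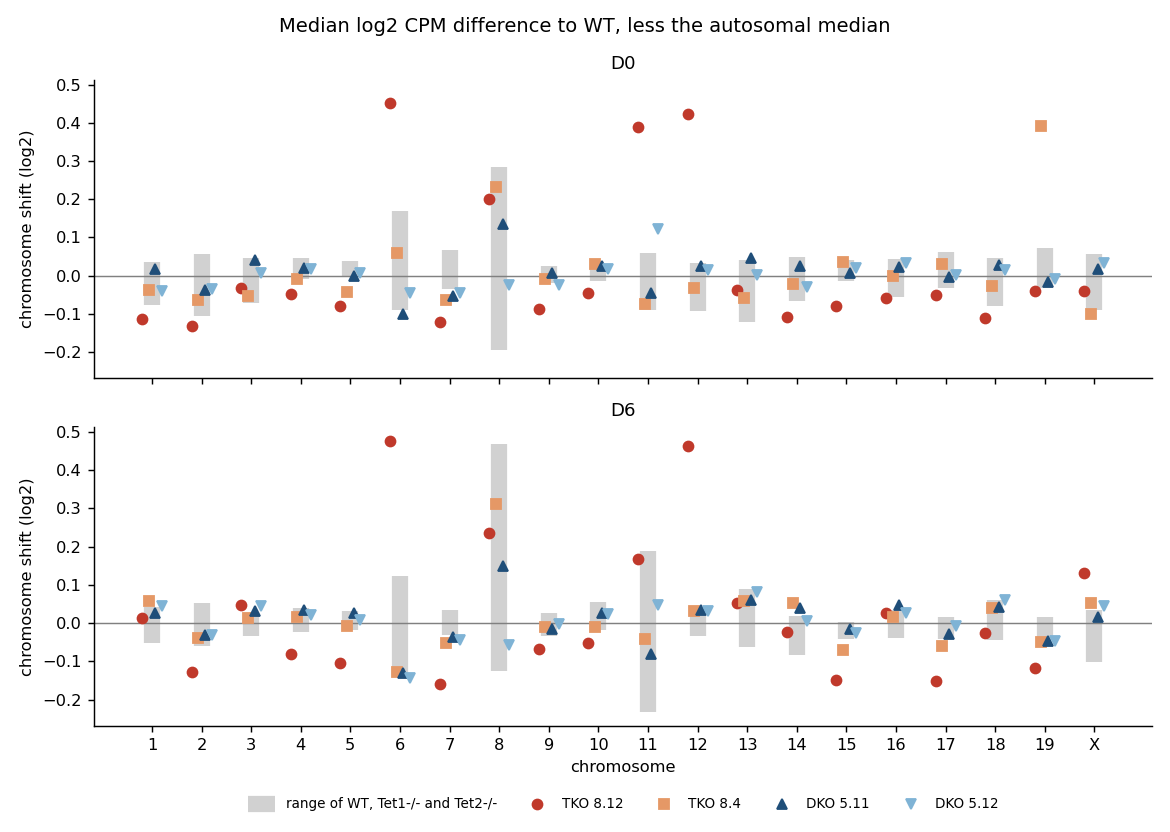
Chromosome shift in log2 units (vertical axis) for each chromosome (horizontal axis) on D0 (top) and D6 (bottom); coloured points are the TKO and DKO clones and grey bars span the WT, Tet1-/- and Tet2-/- libraries. At D6 clone TKO_8.12 stands alone on chromosomes 6 and 12, at 0.48 and 0.46.

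The median log2 fold change of TKO against DKO differed by chromosome. It was 0.33 on chromosome 6, 0.24 on chromosome 8, 0.23 on chromosome 12 and 0.11 on chromosome 11, and 0.01 over all genes tested. At an unadjusted p under 0.05, 717 genes were higher in TKO (4.65%) and 560 lower (3.63%). The share that was higher reached 16.3% of the 735 genes tested on chromosome 8, 13.6% of 669 on chromosome 6 and 13.8% of 477 on chromosome 12. Of the 655 higher genes with a known chromosome, 336 (51.3%) lay on chromosomes 6, 8, 11 or 12, which hold 21.7% of the placed genes. Of the genes called higher without clone TKO_8.4, 63 of 82 placed genes lay on these 4 chromosomes. Tet3 lies on chromosome 6, and its RNA in clone TKO_8.12 was low although that chromosome was shifted upward there.

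Among genes with both TKO clones above both DKO clones, 12 with the smallest p, a change over 2-fold and a higher group mean of at least 1 CPM were described, none of which passed the adjusted threshold. Kit, the receptor for stem cell factor, was at 113 and 93.6 CPM in clones TKO_8.12 and TKO_8.4, and at 49.4 and 48.9 CPM in clones DKO_5.11 and DKO_5.12. The clones of a group lay close together for Kit, and the log2 fold change was 1.07 (SE 0.233, unadjusted p = 0.000769, adjusted p = 0.594 by edgeR). Kit was at 54.7 to 103 CPM in D6 WT, so that both DKO clones lay below the WT range and clone TKO_8.12 lay above it. Slc4a5, a sodium bicarbonate cotransporter, on chromosome 6, was at 11.2 and 12.5 CPM in TKO and 2.69 and 4.08 CPM in DKO, with 6.88 to 10.8 CPM in WT. Spic, an Ets-family transcription factor, was at 5.26 and 5.85 CPM in TKO and 1.01 and 1.30 CPM in DKO. Its TKO levels also lay above the WT clones, which ran from 0.484 to 2.3 CPM. Kit, Slc4a5 and Spic are the 3 genes that DESeq2 called higher, each at an adjusted p of 0.0452 by that tool.

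Pfkp, the platelet-type phosphofructokinase of glycolysis, was at 70.4 and 93.1 CPM in the TKO clones and 30.2 and 44.5 CPM in the DKO clones. Both TKO clones were inside its WT range of 54.5 to 103 CPM. Slfn9, of the Schlafen family, was at 2.5 CPM in TKO_8.12 and 8.04 CPM in TKO_8.4, and at 1.15 and 1.19 CPM in DKO. Smyd1, a muscle histone methyltransferase on chromosome 6, was at 6.49 CPM in TKO_8.12 but at 1.56 CPM in TKO_8.4, against 0.560 and 0.984 CPM in DKO. Bcap29, on chromosome 12, split the TKO clones likewise, with 69.0 and 31.3 CPM beside 22.9 and 23 CPM in DKO. For both of these genes the clone with the shifted chromosome was the higher one, and the part of that shift in the difference was not tested. The kallikrein genes Klk1 and Klk1b22 had log2 fold changes of 2.25 and 2.90 at levels under 3 CPM, and reads of this closely related family cannot be assigned with certainty. The remaining genes of the 12, Gm1631, 4930502E18Rik and C330021F23Rik, are predicted genes or unnamed transcripts with log2 fold changes of 2.60, 2.24 and 1.14, the last of them on chromosome 8.

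A further 12 genes, chosen in the same way, had both TKO clones below both DKO clones. Slc1a4, a transporter of serine and other neutral amino acids, was at 35.0 and 25.6 CPM in clones TKO_8.12 and TKO_8.4 and at 59.1 and 63.6 CPM in the DKO clones. Its log2 fold change was -1.02 (SE 0.217, unadjusted p = 0.000673, adjusted p = 0.594 by edgeR), and it was the gene that DESeq2 called lower (adjusted p = 0.0452 by DESeq2). The WT clones, at 45.5 to 56.7 CPM, lay between the groups. Slc32a1, the vesicular transporter of GABA and glycine, was at 0.638 and 0.831 CPM in TKO and 2.34 and 2.52 CPM in DKO, with the WT clones (0.591 to 1.07 CPM) at the level of TKO. Its log2 fold change was -1.71 (SE 0.337, unadjusted p = 0.000378, adjusted p = 0.594 by edgeR). Shisa6, a partner of AMPA-type glutamate receptors, was at 1.44 and 2.66 CPM in TKO and 6.09 and 5.79 CPM in DKO. Chrd encodes Chordin, a secreted BMP antagonist of the gastrula organizer, and was at 1.38 and 2.63 CPM in TKO and 5.84 and 5.29 CPM in DKO.

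Gas2l1, which links actin to microtubules, was at 6.11 and 9.31 CPM in TKO against 16.3 and 15.7 CPM in DKO. Hist1h1c, a linker histone gene, was at 2.07 and 1.93 CPM in TKO and 4.02 and 4.17 CPM in DKO, with WT between them at 3.31 to 3.59 CPM. Cxcl11, a chemokine, was at 3.67 and 2.73 CPM in TKO and 8.75 and 18.0 CPM in DKO. Akr1c18, Hyal3, Rsph4a, Ntf5 and Klhl4 completed the 12, with log2 fold changes from -2.57 to -1.06. The log2 fold changes of all 24 genes kept their sign under every alternative run. Because these genes were chosen for separate groups and a change over 2-fold, leaving out a single clone could not turn the sign. The stable sign is therefore no measure of robustness.

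**Figure D3:**
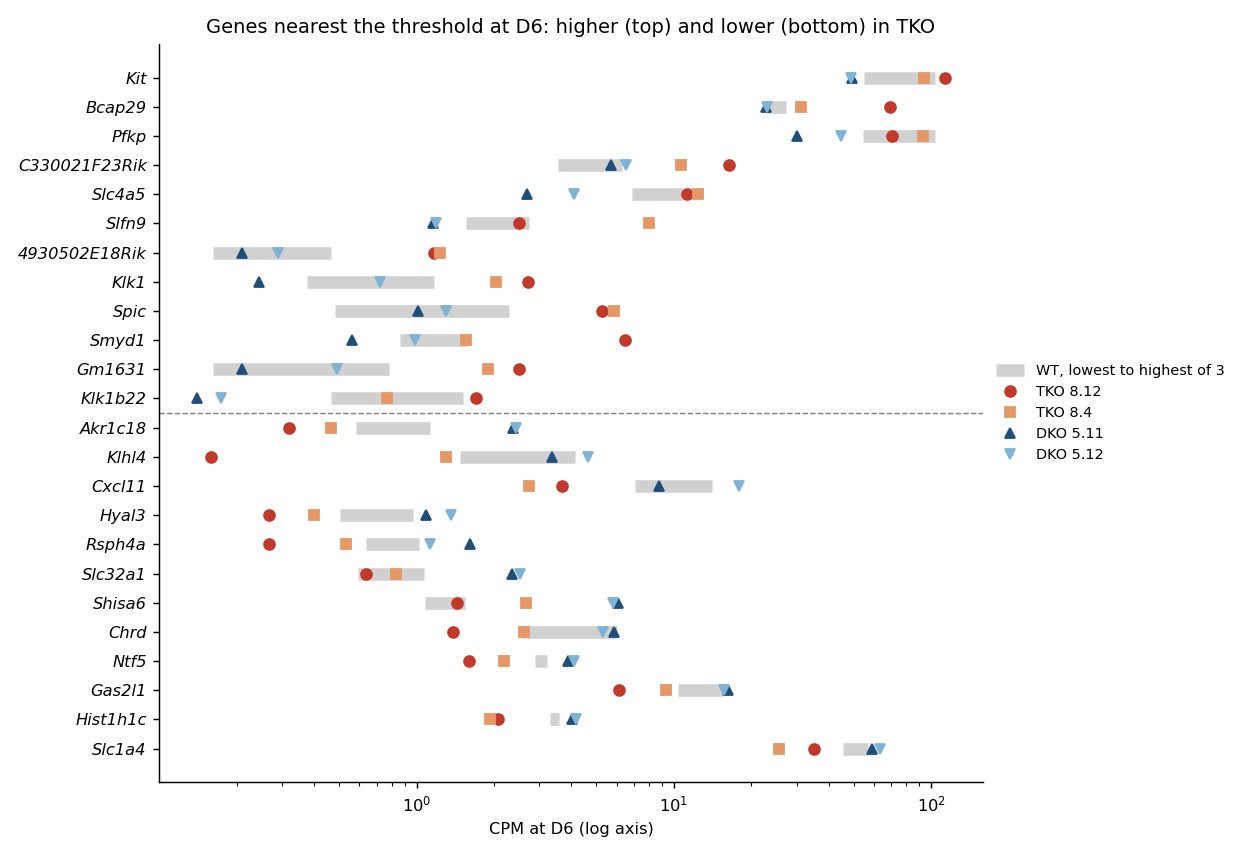
RNA level at D6 in CPM on a log axis (horizontal) for 12 genes with both TKO clones above both DKO clones (top) and 12 with both below (bottom), one gene per line; points are the TKO and DKO clones and the grey bar spans the 3 WT clones. For Kit and Slc1a4 the clones of a group lie close together, while Smyd1 (6.49 and 1.56 CPM) and Bcap29 (69.0 and 31.3 CPM) separate the TKO clones.

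Gene lists were then read for direction, each against all genes, of which 20.3% had both TKO clones above both DKO clones and 20.8% had both below. No member of any list was called by edgeR at D6, so counts of separated members and list medians are given as a description. Pluripotency genes are the first group, since their RNA falls as ESCs differentiate. Of 28 naive pluripotency genes tested, 17 were higher in both TKO clones and 3 lower, and the median log2 fold change was 0.50, against 0.01 over all genes tested. The median was 0.45 without clone TKO_8.4 and 0.37 without clone TKO_8.12. Of the 17 genes, 6 lay on chromosomes 6, 8, 11 or 12 and 11 elsewhere, and the median over members elsewhere was 0.43.

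Esrrb and Zfp42 (Rex1), naive-state factors, had log2 fold changes of 0.95 and 0.95, above the list median. Esrrb was at 196.4 and 167 CPM in clones TKO_8.12 and TKO_8.4 and at 98.8 and 89.3 CPM in the DKO clones. Zfp42 was at 208 and 322 CPM in TKO and 155 and 119 CPM in DKO. Esrrb lies on chromosome 12 and Zfp42 on chromosome 8, and the part of the chromosome shifts in these values was not tested. Both were chosen after their values were seen, and neither reached an unadjusted p under 0.05. Fbxo15, a target of Oct4 and Sox2, was at 135 and 128 CPM in TKO and 66.2 and 65.1 CPM in DKO, with only 18.3 to 45.0 CPM in D6 WT (log2 fold change 1.01, SE 0.385). Lifr, the receptor subunit for LIF, was at 18.8 and 12.4 CPM in TKO and 9.06 and 7.55 CPM in DKO (log2 fold change 0.90, SE 0.235). Dppa3 (Stella), a maternal factor of the zygote and germ line on chromosome 6, differed between the TKO clones as well, at 70.5 CPM in TKO_8.12 and 14 CPM in TKO_8.4, with 4.27 and 7.32 CPM in DKO. Tdgf1, the Nodal co-receptor Cripto, ran the other way, at 246 and 411 CPM in TKO against 552 and 553 CPM in DKO. The core factor Pou5f1 (Oct4), whose locus carries the eGFP reporter, was at 185 and 364 CPM in TKO and 362 and 304 CPM in DKO, so its groups overlapped.

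Genes of the formative and primed epiblast, the state that follows the naive one, leaned lower in TKO. Of 19 tested, 7 were lower in both TKO clones and 1 higher (Dnmt3a), with a median of -0.32, which was -0.93 without clone TKO_8.4 and -0.15 without clone TKO_8.12. Zic2, a zinc finger factor of the early epiblast, was at 67.3 and 92.2 CPM in TKO and 116 and 178 CPM in DKO. Its relative Zic5 was at 5.37 and 11.3 CPM in TKO and 16 and 17.0 CPM in DKO. Fgf5, the usual marker of the primed epiblast, was at 38.2 CPM in TKO_8.12 and 143 CPM in TKO_8.4, beside 178 and 223 CPM in DKO. The lower value in each of these genes was in clone TKO_8.12. Dnmt3b, the de novo methyltransferase of this stage, showed the same order, at 202 and 659 CPM in TKO and 702 and 759 CPM in DKO.

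Of the 23 lists, definitive endoderm had the largest share of members lower in both TKO clones. Of 16 definitive endoderm genes tested (17 listed), 10 were lower in both TKO clones and 1 higher, and the median was -0.52, with -0.67 without clone TKO_8.4 and -0.53 without clone TKO_8.12. Of the 16 tested, 4 were lower with an unadjusted p under 0.05 and a change over 2-fold, a class that holds 0.622% of all genes. In bulk RNA, fewer cells of a type and less RNA per cell cannot be told apart. Cer1, a secreted antagonist of Nodal and BMP made by anterior endoderm, was at 0.957 CPM in TKO_8.12 and 7.01 CPM in TKO_8.4, and at 33.9 and 29.8 CPM in DKO. Its log2 fold change was -2.94 (SE 0.853, unadjusted p = 0.00547, adjusted p = 0.594 by edgeR), and the WT clones ran from 22.4 to 71.0 CPM. Gsc, the organizer homeobox gene Goosecoid, was at 5.90 and 5.95 CPM in TKO and 14.9 and 14.4 CPM in DKO, the clones of each group being almost equal.

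Foxa2, a pioneer factor of endoderm, node and floor plate, was at 0.744 and 4.89 CPM in TKO and 12.8 and 11 CPM in DKO, with WT at 9.77 to 42.7 CPM. Sox17, an endoderm and endothelial factor, was at 0.798 and 4.42 CPM in TKO and 16 and 10.2 CPM in DKO, with WT at 11.1 to 73.1 CPM. In Cer1, Foxa2 and Sox17 both TKO clones lay below all WT clones, and clone TKO_8.12 was the lowest of the 4. Low levels were not particular to TKO. The D6 Tet2-/- clones had 0.293 to 1.06 CPM of Cer1, 3.08 to 4.82 CPM of Foxa2 and 0.110 to 0.454 CPM of Sox17. They had 1.68 to 2.94 CPM of Gsc. The Tet1-/- clones stood higher, at 13.6 to 47.4, 12.8 to 17.2, 5.54 to 23.6 and 8.68 to 18.4 CPM, in the same order. Cxcr4 and Gata6 also had separate groups, with log2 fold changes of -1.42 and -1.19. General epithelial members of the list differed less, Epcam by -0.28 and Cdh1 by -0.01. Of the 10 genes, 2 (Foxa1 and Gsc) lie on chromosome 12, which was shifted upward in clone TKO_8.12. The primitive and visceral endoderm list, which shares Foxa2, Sox17 and Gata6, had 8 of 21 tested members lower and 2 higher. Its median of -0.29 was -0.12 without TKO_8.4 and -0.35 without TKO_8.12. Apoe, a lipid carrier of visceral endoderm, had the smallest p of any list member, at 196.2 and 210 CPM in TKO and 302 and 348 CPM in DKO (log2 fold change -0.68, SE 0.142, unadjusted p = 0.000590 by edgeR).

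The Nodal, BMP, Wnt and FGF feedback list gave 6 of 32 members lower in both TKO clones, a share near that of all genes, and 1 higher, with 25 fold changes below 0, against 7576 of all 15435 genes, and a median of -0.11, which was -0.086 without TKO_8.4 and -0.23 without TKO_8.12. Nodal itself was at 76.1 and 131 CPM in TKO and 149 and 161 CPM in DKO, while WT stood at 56.9 to 89.2 CPM. Sp5, a direct target of Wnt signaling, was at 17.5 and 23.7 CPM in TKO and 71.7 and 46.3 CPM in DKO. The Tet2-/- clones were lower still for Sp5, at 3.22 to 6.24 CPM, and the Tet1-/- clones stood at 35.5 to 118 CPM. The Nodal targets Lefty1 and Lefty2 did not separate the groups, with log2 fold changes of -0.28 and -0.26.

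Mesoderm genes depended on which TKO clone was read. Of 28 primitive streak and early mesoderm genes tested, 6 were lower in both TKO clones and 0 higher, and the median of -0.22 became 0.29 without clone TKO_8.4 and -0.81 without clone TKO_8.12. Brachyury (T), the general streak marker, was at 213 CPM in TKO_8.12 and 65.2 CPM in TKO_8.4, with 148 and 101 CPM in DKO between them. Wnt5a and Cdx4 were among the members that separated TKO_8.12 from the other 3 clones. Wnt5a, a ligand of axis elongation, was at 54.7 CPM in TKO_8.12, and at 3.32 CPM in TKO_8.4, 6.16 CPM in DKO_5.11 and 3.79 CPM in DKO_5.12. Its WT range, 7.98 to 43.4 CPM, lay below TKO_8.12 and above the other 3 clones. Cdx4, which activates posterior Hox genes, was at 6.17 CPM in TKO_8.12 and between 0.245 and 0.347 CPM in the other TKO and DKO clones, while WT reached 1.78 CPM. Eomes, a T-box factor of streak and endoderm, was lower in both TKO clones, at 56.1 and 73.0 CPM against 131 and 96.3 CPM in DKO. Lhx1, of the same list, a LIM homeobox factor of the organizer and anterior mesendoderm, was at 12.9 and 8.91 CPM in TKO and 61.1 and 30.8 CPM in DKO. The Tet2-/- clones were lower still for Lhx1, at 0.549 to 1.94 CPM, and the Tet1-/- clones stood at 32.2 to 221 CPM.

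Hox genes, which pattern the trunk along the body axis, showed this split most clearly. The summed level of the 24 Hox genes tested (39 listed) was 49.7 CPM in TKO_8.12, 7.38 CPM in TKO_8.4, 11.4 CPM in DKO_5.11 and 7.43 CPM in DKO_5.12. Their median log2 fold change of 1.69 turned to -0.36 without clone TKO_8.12, and 2 of 24 were higher in both TKO clones and 1 lower. Hoxa9 and Hoxd9 were at 4.47 and 8.19 CPM in clone TKO_8.12 and at or below 0.525 CPM in the other 3 clones, with WT reaching 0.570 CPM of Hoxa9 and 3.69 CPM of Hoxd9. Trophectoderm genes (19 tested, 5 higher, 3 lower) had a median of 0.51, which was 0.78 without clone TKO_8.4 and -0.36 without TKO_8.12, and Cdx2 and Bmp4, expressed in posterior mesoderm as well, were among those high in TKO_8.12. Of 27 mesenchyme and extracellular matrix genes 8 were lower in both TKO clones and 1 higher, while the median was 0.09, or 0.12 without TKO_8.4 and -0.52 without TKO_8.12. The cardiac and smooth muscle list (25 tested, 6 higher, 5 lower, median 0.15) and the endothelium and blood list (20 tested, 3 higher, 4 lower, median 0.22) also changed sign with 1 TKO clone left out, to -0.34 without TKO_8.12 and to -0.27 without TKO_8.4, respectively.

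Neuroectoderm genes were lower in both TKO clones in 9 of 23 tested and higher in 1 (Sox2), with a median of -0.31, which was -0.69 without TKO_8.4 and -0.40 without TKO_8.12. The other members of the 9 were at low levels, such as Six3 at or below 0.455 CPM in every clone, and Zic2, Zic5, Sox3 and Map2 were the members above 5 CPM in all 4 clones. Of these, Zic2, Zic5 and Sox3 also belong to the formative and primed epiblast list, so the lists are not independent. Sox3 was at 8.61 and 15.0 CPM in TKO and 16.8 and 20.8 CPM in DKO. Surface ectoderm genes (14 tested, 4 lower, 1 higher) had a median of -0.38, which was -0.63 without clone TKO_8.4 and -0.31 without TKO_8.12. Parietal endoderm genes (13 tested, 5 lower, 0 higher) had a median of -0.20, which was -0.072 without TKO_8.4 and -0.33 without TKO_8.12. Of 13 neural crest genes 3 were lower and 0 higher, a share near that of all genes, and the median of -0.18 became 0.16 without TKO_8.4 and -0.52 without TKO_8.12.

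Germline genes that are silenced by promoter methylation in somatic cells leaned higher in TKO. Of 31 tested, 16 were higher in both TKO clones and 6 lower, with a median of 0.35 that was 0.26 without clone TKO_8.4 and 0.36 without TKO_8.12. Of the 16, 12 lay outside chromosomes 6, 8, 11 and 12. Stag3, a meiotic cohesin subunit, was at 27.0 and 20.1 CPM in TKO and 9.73 and 14.8 CPM in DKO (log2 fold change 0.94, SE 0.287). Sycp1, of the synaptonemal complex, was at 16 and 14.4 CPM in TKO and 9.87 and 8.42 CPM in DKO, above the WT range of 5.23 to 6.72 CPM in all 4 clones. Smc1b, another meiotic cohesin gene, was at 11.2 and 18.5 CPM in TKO and 1.85 and 6.02 CPM in DKO, while WT ran from 2.1 to 25.7 CPM and held both TKO clones. Ddx4, Mael and Mov10l1, of the germ cell piRNA machinery, were lower in both TKO clones, with log2 fold changes of -0.23, -0.50 and -0.56. On D0 the median of the same list was -0.62. A change of sign between days was not particular to it. The D0 median was 0.56 for definitive endoderm, 0.19 for formative and primed epiblast, -0.094 for naive pluripotency and -1.05 for Hox genes. Neuroectoderm (-0.16) and trophectoderm (0.25) kept their sign.

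In the list of DNA methylation genes, 12 of 27 were higher in both TKO clones and 5 lower, Tet3 among the latter (median 0.17). Besides Tet2, the higher members with the smallest p were a pair of base excision repair genes on chromosome 8, which was shifted upward in both TKO clones. Polb, the polymerase of that pathway, was at 51.7 and 40.3 CPM in TKO and 33.8 and 29.9 CPM in DKO, and Neil3, a DNA glycosylase, was at 12.1 and 10.3 CPM in TKO and 7.38 and 8.13 CPM in DKO. The part of the chromosome 8 shift in these values was not tested. The maintenance enzymes Dnmt1 and Uhrf1 differed little, by 0.12 and -0.09 on the log2 scale.

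Genes of glycolysis and hypoxia were higher in both TKO clones in 10 of 28 and lower in 1, with 24 fold changes above 0 and a median of 0.20, which was 0.31 without TKO_8.4 and 0.11 without TKO_8.12. Apart from Pfkp, Ankrd37, a hypoxia target on chromosome 8, was the member with a change over 2-fold, at 5.16 and 7.95 CPM in TKO and 3.18 and 2.92 CPM in DKO. Most glycolytic enzymes differed by less, Ldha by 0.14, Pgam1 by 0.15 and Gapdh by 0.39. Of 39 imprinted genes, 5 were higher and 5 lower in both TKO clones with a median of 0.02, which was 0.15 without TKO_8.4 and -0.18 without TKO_8.12. Of 21 p53 target genes 1 was higher and 1 lower in both TKO clones and 14 fold changes were below 0. Their median of -0.10 was -0.31 without TKO_8.4 and 0.049 without TKO_8.12. Of 13 genes of 2-cell-like cells, 11 had a fold change below 0 and 1 was lower in both TKO clones, and the median of -0.58 became -2.83 without TKO_8.4 and 0.053 without TKO_8.12. The 2 members above 0, Pramel6 and Pramel7, were higher in both TKO clones, with 0.851 and 0.765 CPM of Pramel6 in TKO and 0.175 and 0.145 CPM in DKO. The Zscan4 genes of that list, a family of near-identical copies, were at or below 2.17 CPM in all 4 clones. Replication-dependent histone genes (15 tested, 2 higher, 2 lower) had a median of 0.15, which was 0.55 without TKO_8.4 and -0.071 without TKO_8.12. X inactivation and Y chromosome genes (14 tested, 1 higher, 3 lower) had a median of 0.10, which was -0.23 without TKO_8.4 and 0.39 without TKO_8.12.

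**Figure D4:**
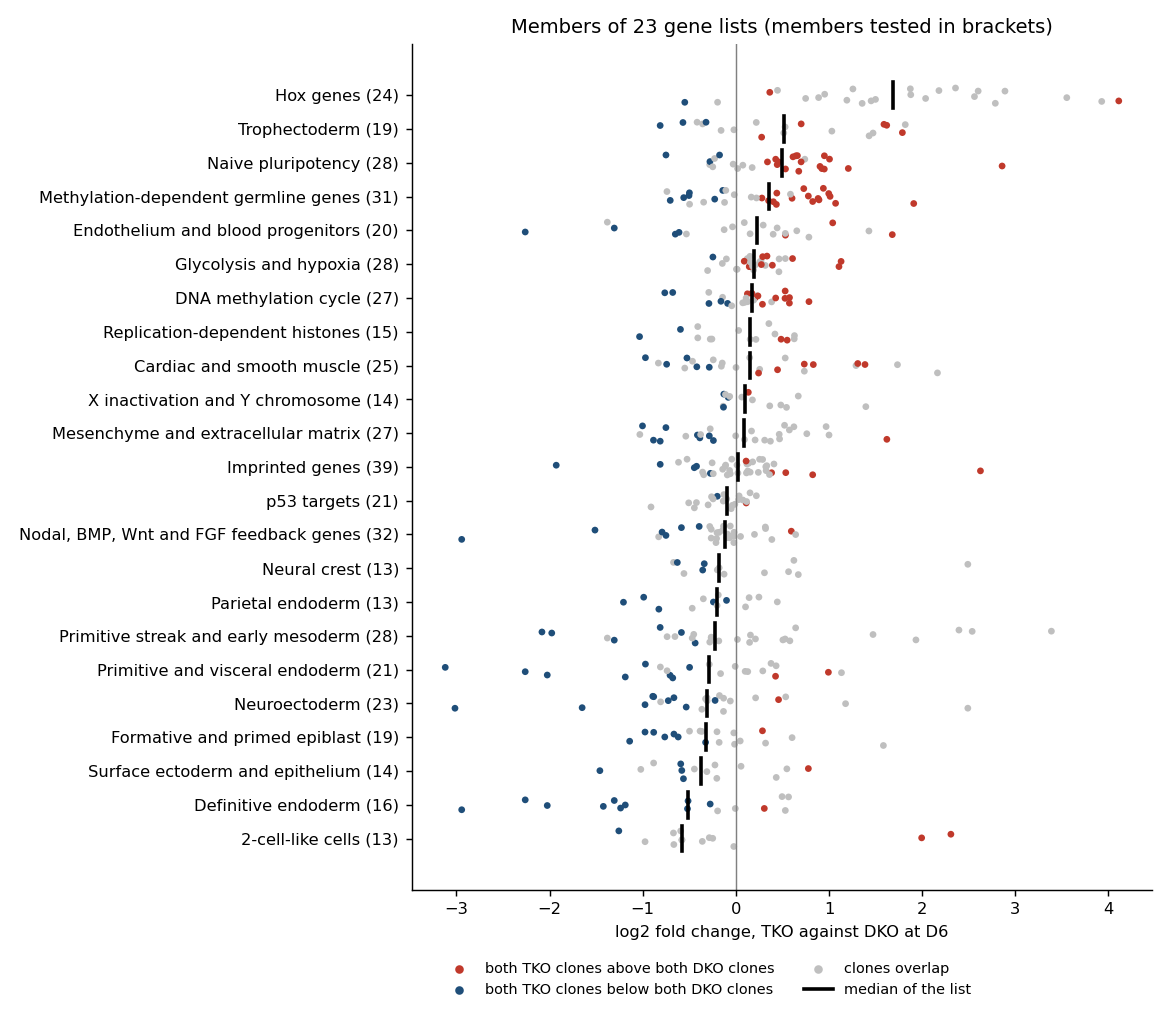
Log2 fold change of TKO against DKO at D6 (horizontal axis) for the tested members of 23 gene lists, ordered by median; each point is a gene, red where both TKO clones lie above both DKO clones, blue where both lie below, grey otherwise, and black bars are medians. The Hox median of 1.69 rests mostly on grey points, whereas naive pluripotency (0.50) and definitive endoderm (-0.52) hold mostly red and mostly blue points.

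The spread between the TKO clones was compared with that between the DKO clones. Among genes with a mean of at least 1 CPM, 893 of 13185 (6.77%) differed by more than 2-fold between clones TKO_8.12 and TKO_8.4 at D6, against 70 of 13116 (0.534%) between clones DKO_5.11 and DKO_5.12. On D0 the shares were 8.45% and 0.210%. These values come from 1 library per clone and day and carry no test. Besides Wnt5a, the genes most in excess in TKO_8.12 were Pgam2 (19.09 and 0.898 CPM), Cdx2 (38.9 and 3.29 CPM), Rspo3 (40.8 and 3.62 CPM) and Msgn1 (10.6 and 0.532 CPM), of which Cdx2, Rspo3 and Msgn1 are known from the posterior embryo. Most in deficit were the neurofilament genes Nefm (13.2 and 125 CPM) and Nefl (22.7 and 205 CPM), the Y-linked Ddx3y (8.29 and 74.9 CPM), the unnamed transcript A230070E04Rik (3.30 and 36.3 CPM) and Foxd3 (1.33 and 14.3 CPM), a factor of epiblast and neural crest. For Nefm and Nefl clone TKO_8.4 was near the DKO clones, which had 156 and 158 CPM of Nefm. Clone TKO_8.12 was thus the one that stood apart in these neurofilament genes.

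Differences between the TKO clones were also set side by side over both days, with no test of a change between days. Of 12108 genes compared, 608 differed by more than 2-fold at D6 and 985 on D0, and 111 did so on both days in the same direction, which is 18.3% of the D6 genes and 11.3% of the D0 genes. A further 33 differed on both days in opposite directions. Tet1 and Dppa3 were among the genes that differed the same way on both days.

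**Figure D5:**
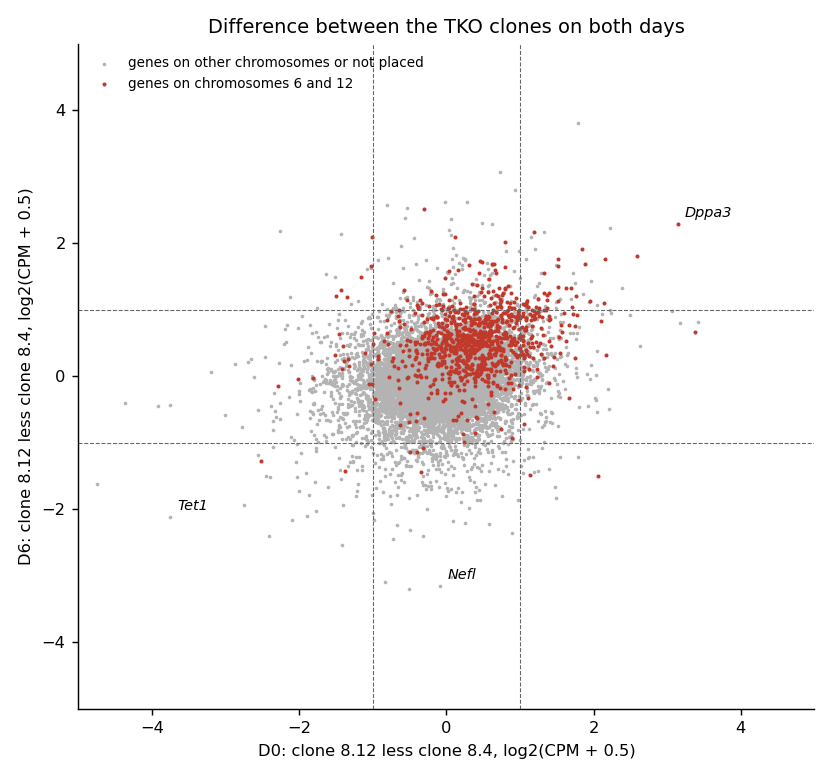
Difference between clones TKO_8.12 and TKO_8.4 in log2(CPM + 0.5) on D0 (horizontal axis) and D6 (vertical axis); each point is a gene, red on chromosomes 6 and 12, and dashed lines mark 2-fold. Chromosomes 6 and 12 are marked for their higher median shift in TKO_8.12 than in TKO_8.4 on both days, although single genes on them lie on either side of 0, and 111 genes exceed 2-fold in the same direction on both days.

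On D0 the same clones gave 34 genes called higher (0.235%) and 98 lower (0.678%) in TKO, of 14456 tested. Without clone TKO_8.12 these counts were 462 and 444, without TKO_8.4 278 and 346, without DKO_5.11 2 and 22, and without DKO_5.12 4 and 37. Outside chromosomes 6, 8, 11, 12 and 19, 9 genes were called higher. Whether the difference of TKO from DKO itself changed between days was tested as an interaction in a fit of all 24 libraries. It called 5 genes, 3 with a more positive (0.0192%) and 2 with a more negative (0.0128%) difference at D6 than on D0. As the labels, read as above, give the same TKO and DKO clones for both days, the model was also run with clone as a block, and it then called 13 and 10 genes. Among the Tet1-/- libraries of that fit, clone 2.2 was present only at D6 and clone 2.3 only on D0. The interaction calls rest on few libraries, since 0 genes were called in either direction when clone DKO_5.11 or DKO_5.12 of D6 was left out.

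All 5 of these genes differed between the groups on D0 and less so, or in the other direction, at D6. Nckap5 was at 0.330 and 0.167 CPM in clones TKO_8.12 and TKO_8.4 on D0 and 3.20 and 2.31 CPM in DKO, while at D6 it was at 2.2 and 1.41 CPM in TKO and 1.45 and 1.30 CPM in DKO. H2-K1, a classical MHC class I gene, was higher in TKO on D0, with 47.4 and 37.2 CPM against 15.5 and 16 CPM. At D6 it stood at 101 and 71.3 CPM in TKO and 105 and 121 CPM in DKO, so that the DKO clones had gained more. Cep170b, which encodes a centrosomal protein, had the same course, with 59.8 and 57.5 CPM against 28.5 and 27.5 CPM on D0 and 134 and 126 CPM against 150 and 137 CPM at D6. Lmo7, of the LIM domain family, went from 24.1 and 22.3 CPM in TKO and 36.8 and 47.1 CPM in DKO on D0 to 40.7 and 54.4 CPM in TKO and 31.2 and 34.2 CPM in DKO at D6.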

How the data were processed

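Polyadenylated RNA of 24 libraries was sequenced, 12 on each day. The authors aligned reads to mm9 (STAR 2.5.1 per the submitters' processing notes) and deposited raw read counts per gene, 1 table for each day. Whether counting used strand is not given in the sources used here. Each table has 31928 lines for 22926 symbols, of which the first line per symbol entered the fits.

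Genes were filtered with filterByExpr (minimum count 10) and fitted with edgeR 4.0.16 in R 4.3.3 (TMM, quasi-likelihood, all 12 D6 libraries sharing 1 estimate of spread). TKO was contrasted with DKO and p-values were adjusted by Benjamini-Hochberg. The interaction used all 24 libraries. CPM were computed after TMM scaling, within each day, except for genes called in the interaction, where both days were scaled together. A limit of 3 counts equals 0.0877 to 0.153 CPM in the TKO and DKO libraries of D6, and covers counting error only. Where separate cultures are not recorded, p-values measure the spread between these samples.

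DESeq2 1.42.0, scaling by library totals, summed lines, no filter, blocks and leaving out each library were tried as alternatives. Fits were tested on simulated data. Replicate numbers did not pair TKO with DKO (correlation of deviations -0.0839), whereas the labels give the same TKO and DKO clones on both days. For clone DKO_5.12 this rests on reading a D6 label that lacks the point.

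The comparison, the gene lists and the tests were chosen with earlier results of these data known. Named genes were the edited genes, 12 in each direction by smallest p among genes over 2-fold with separate groups and a higher mean of at least 1 CPM, up to 4 members of each list by p, genes called in the interaction, and up to 5 genes in each direction that differed most between the TKO clones. Other list members named were chosen after their values were seen.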

Additional observations from a re-analysis of the deposited data

Results flagged for a closer look

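In 5 genes the difference of TKO from DKO was itself different between D6 and D0, by edgeR's quasi-likelihood test of the interaction with Benjamini-Hochberg adjustment. The difference of log2 fold changes, D6 less D0, was 3.83 (SE 0.534, adjusted p = 0.00965) for Nckap5 and 1.40 (SE 0.204, adjusted p = 0.00965) for Lmo7. It was -1.82 (SE 0.269, adjusted p = 0.00965) for H2-K1, a member of a family of similar MHC genes whose reads may be shared, and -1.21 (SE 0.209, adjusted p = 0.0455) for Cep170b. For 1700029P11Rik it was 2.77 (SE 0.449, adjusted p = 0.0243), the levels being 2.89 and 3.26 CPM in clones TKO_8.12 and TKO_8.4 and 15.1 and 13.6 CPM in DKO on D0, and 1.55 and 1.69 CPM in TKO and 1.02 and 1.19 CPM in DKO at D6. With clone as a block the adjusted p of these genes ran from 0.00167 to 0.0296. The sign held in 14 of 14 alternatives for each gene, but the call did not. When each of 8 libraries was left out in turn, Nckap5 and Lmo7 remained called in 5 cases, H2-K1 and 1700029P11Rik in 4 and Cep170b in 2.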

How the results depend on the processing

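DESeq2 called 3 genes higher and 1 lower at D6, and leave-one-out fits called 0 to 85 higher and 0 to 52 lower, all of them without clone TKO_8.4 (replicate 1), where clone TKO_8.12 is assumed to vary like the other groups. The replicate block called 0 in both directions at D6, with 186 genes higher and 96 lower at an unadjusted p under 0.05 and over 2-fold. On D0 DESeq2 called 103 higher and 161 lower, no filter gave 80 higher, genes outside chromosomes 6, 8, 11, 12 and 19 gave 9 higher, and leave-one-out fits gave 2 to 462 higher and 22 to 444 lower. For the interaction DESeq2 called 47 higher and 54 lower, library totals 1 lower, summed lines 1 lower, the clone block 13 and 10, and leave-one-out fits 0 to 97 and 0 to 219. The cause was not tested.

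With either TKO clone left out (no DKO clone was left out for the lists), leave-one-out list medians ran from -2.83 to 0.053 (2-cell), -0.34 to 0.25 (cardiac), -0.27 to 0.25 (endothelium), -0.93 to -0.15 (formative), -0.36 to 3.08 (Hox), -0.52 to 0.12 (mesenchyme), 0.37 to 0.45 (naive), -0.69 to -0.40 (neuroectoderm), -0.071 to 0.55 (histones), -0.36 to 0.78 (trophectoderm), -0.23 to 0.39 (X and Y), -0.52 to 0.16 (neural crest), -0.18 to 0.15 (imprinted) and -0.31 to 0.049 (p53). The DNA methylation median was 0.13 with library totals. Over 4-fold, 0.849% of genes differed between TKO clones at D6 and 0.670% on D0, against 0.00762% and 0.00809% in DKO. With a mean of at least 10 CPM the shares over 2-fold were 3.81% in TKO and 0.182% in DKO at D6, and 0.0698% in DKO on D0. With genes of at least 10 CPM the DKO shift was 0.00598 on chromosome 12 on D0, and -0.0385 at D6 and -0.00531 on D0 on chromosome 19.

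Of 110 named genes, 9 turned direction in a leave-one-out fit, whose log2 fold changes ran from -1.05 to 1.08 for Tet1, -0.19 to 1.66 for Zeb1, -1.31 to 3.49 for Pax3, -0.34 to 2.26 for Bmp4, -3.31 to 0.25 for Tcstv3, -0.40 to 3.86 for Hoxd8, -1.15 to 0.049 for Sesn2, -0.44 to 2.4 for Zfy1 and -0.012 to 1.12 for Hist1h4d. Clone TKO_8.12 (replicate 2) left out turned Zeb1, Pax3, Bmp4, Hoxd8, Sesn2 and Hist1h4d, and clone TKO_8.4 left out turned Zfy1 and Tet1. Tet1 was also at -0.02 without DKO replicate 1, and Tcstv3 turned without DKO replicate 2. The 110 leave out genes named only for their difference between the TKO clones, such as Wnt5a and Rspo3. They also leave out list members named after their values were seen.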
